A study of Mus musculus with 12 samples.

Results

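The Trav14 family comprises the variable segments of the mouse T cell receptor alpha locus (Tcra) that the tables name TRAV14-1, TRAV14-2, TRAV14-3, TRAV14D-1, TRAV14D-2 and TRAV14D-3/DV8. All rows with such a name were taken, with all 43 joining segments (Traj) as partners, which gave 6 of the 85 Trav segments listed in any table and 258 of the 3397 pairs of a Trav with a Traj compared. Each of the 3 D copies was set against the segment of the same name without the D. Tcra transcripts were amplified by 5′ RACE with a Trac primer from total RNA of CD3e-negative CD4 and CD8 double-positive thymocytes of mice aged 4 to 6 weeks. The groups were DPASEKO and wild type (WT), each homozygous, at steady state and in ZsGreen-positive cells 24 h or 48 h after 1 mg of tamoxifen, with 2 libraries in each of the 6 groups. All groups carried TcrdCreER, of strain 129 origin at the Tcra and Tcrd loci on a C57BL/6J background, and a ZsGreen reporter at Rosa26, which the labels give as Rosa26ZsG/+ in the genotype and as Rosa26ZsG/ZsG in the strain. The labelled cells are those in which TcrdCreER had acted, and the tables hold no gene by which the deletion or the cell type could be checked.

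Tcra rearranges in rounds. The first joins tend to use Trav segments close to the joining region with Traj segments at its 5′ end, which carry high numbers, and later rounds replace them with joins of more distant Trav segments to more 3′ Traj segments, which carry low numbers. In mice part of the Trav array is duplicated, and the D copies lie in the distal duplicate, so a D copy and its counterpart have similar sequence and unlike position. TRAV14D-3/DV8 is also named as a delta chain segment, since it can be used in the Tcrd locus nested within Tcra. DPASE is a regulatory element tied to the Rag genes, whose products make the cuts of this recombination.

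The segments differ little in sequence, and the stretches below show part of the differences by which members can be told apart. They are 99 bases of the coding sequence of each member from the GENCODE M21 transcripts (GRCm38, chromosome 14, plus strand), written 5′ to 3′ from the codon of the first conserved cysteine through the stretch of the second complementarity-determining region. Capitals mark the 17 positions at which the 6 members are not all the same.
Trav14d-1: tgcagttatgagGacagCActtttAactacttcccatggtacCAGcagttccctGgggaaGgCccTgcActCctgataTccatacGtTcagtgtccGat
Trav14d-2: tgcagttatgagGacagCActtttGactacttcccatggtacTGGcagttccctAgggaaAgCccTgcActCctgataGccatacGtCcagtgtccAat
Trav14d-3/dv8: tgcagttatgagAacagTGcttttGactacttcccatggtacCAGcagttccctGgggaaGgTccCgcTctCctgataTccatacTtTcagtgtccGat
Trav14-1: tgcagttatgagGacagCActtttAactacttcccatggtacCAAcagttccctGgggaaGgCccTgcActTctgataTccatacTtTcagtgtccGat
Trav14-2: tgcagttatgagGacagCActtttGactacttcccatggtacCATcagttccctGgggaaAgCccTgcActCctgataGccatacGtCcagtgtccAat
Trav14-3: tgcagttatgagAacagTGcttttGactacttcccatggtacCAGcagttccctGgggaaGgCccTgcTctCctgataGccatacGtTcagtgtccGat

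Over 280 bases that the 6 transcripts share, the members differed at 31 positions, and any pair was 92.9% to 97.5% identical. Trav14d-2 was nearest to its counterpart Trav14-2, with 7 differences, and Trav14d-3/dv8 was nearest to Trav14-3, with 8. Trav14d-1 had 11 differences from Trav14-1 and 9 from each of Trav14d-2 and Trav14-3. The annotation also lists 3 segments named Trav14n, of which Trav14n-1 had 0 differences from Trav14d-1 and Trav14n-2 had 0 from Trav14d-2 over this stretch. Trav14n-3 was nearest to Trav14-3, with 5 differences, and had 9 from Trav14d-3/dv8. No row of the tables carries an N name, so a value listed under Trav14d-1 or Trav14d-2 could include such a copy where the mice carry one. Where joins of Trav14n-3 would be listed, under Trav14-3 or another member, is not known. How the authors assigned reads that fit several copies is not given in the sources used here, so the split between members is uncertain to that extent.

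In GRCm38, whose annotation is that of C57BL/6J while the labels put a strain 129 locus in these mice, all members lie on the plus strand. Whether the positions hold in the mice was not tested. Trav14d-1 lies at chr14:52855614-52856166, Trav14d-2 at chr14:52948568-52949169 and Trav14d-3/dv8 at chr14:53078452-53079045. Trav14-1 lies at chr14:53554022-53554558, Trav14-2 at chr14:53640701-53641225 and Trav14-3 at chr14:53763173-53763694. Each is annotated as a protein-coding variable segment. Their ends are 1301.1, 1208.1, 1078.2, 602.7, 516.1 and 393.6 kb from Traj58, the most 5′ Traj of the tables, so the D copies are the 3 members farthest from the Traj segments.

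The deposited values are fractions of the repertoire, given here as the percent of each table's own total. In 8 tables the fractions summed to 0.995 to 0.998, and 246 to 258 of the 258 Trav14 pairs were above 0. In the other 4, which are replicate 2 of DPASEKO and of WT at 24 h and at 48 h, they summed to 1.97 to 1.99, the smallest share above 0 was 0.00401% to 0.00937% against 0.000336% to 0.000853% in the 8, and 151 to 189 of the Trav14 pairs were above 0. These 4 libraries of lower resolution also stood apart in the Trav14 shares themselves. In each of them TRAV14-3 was 1.93 to 2.84 times and TRAV14D-1 1.69 to 2.00 times its share in replicate 1 of the same group, while TRAV14D-2 was 0.140 to 0.238 times and TRAV14-2 0.326 to 0.868 times. TRAV14D-3/DV8 (0.839 to 1.01 times) and TRAV14-1 (0.895 to 1.12 times) differed less. The pair typical of invariant NKT cells (TRAV11 or TRAV11D with TRAJ18) was at most 0.0504% and that of MAIT cells (TRAV1 with TRAJ33) at most 0.0503% of any library. The number of reads or molecules behind a fraction is unknown, and the part of the resolution in any result was not tested. Results are therefore given with these libraries and, where they change a call, without them. Without them each labelled group keeps a lone library, and the spread in those fits comes from the steady state libraries alone. This leaves 2 residual degrees of freedom, and calls of those fits assume that labelled libraries vary like those of steady state.

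The family held 9.42% to 18.8% of the repertoire. Its summed share at steady state was 10.2% and 9.61% in DPASEKO against 9.71% and 9.44% in WT. The 24 h libraries had 12.3% and 15.7% in DPASEKO against 11.9% and 18.8% in WT, and those of 48 h 9.85% and 13.9% against 9.42% and 11.2%. The genotypes overlapped at each sampling. The D copies took 28.0% and 30.5% of the family in DPASEKO and 34.8% and 37.9% in WT at steady state. At 24 h the D copies took 16.0% and 15.6% of it in DPASEKO against 18.7% and 15.7% in WT, and at 48 h 24.0% and 18.1% against 35.3% and 29.0%. The D part of the family was thus lower in both DPASEKO libraries than in both WT libraries at steady state and at 48 h.

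TRAV14-1 was the most even member. Its share was 3.38% and 3.08% in DPASEKO and 3.32% and 3.01% in WT at steady state, 3.83% and 3.72% against 4.23% and 3.78% at 24 h, and 3.42% and 3.80% against 3.34% and 3.73% at 48 h. It ranked between 1 and 6 among the Trav segments of every library, and its DPASEKO and WT libraries overlapped at each sampling. TRAV14-3 took 2.36% and 2.27% in DPASEKO against 1.76% and 1.75% in WT at steady state, 4.61% and 8.93% against 3.72% and 10.6% at 24 h, and 2.44% and 6.87% against 1.56% and 3.44% at 48 h. At steady state both DPASEKO libraries lay above both WT libraries. At 24 h and at 48 h the genotypes overlapped, and in each of these groups replicate 2 was the higher.

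TRAV14-2 took 1.58% and 1.33% in DPASEKO against 1.24% and 1.1% in WT at steady state. At 24 h it took 1.89% and 0.616% against 1.73% and 1.51%, and at 48 h 1.62% and 0.750% against 1.19% and 0.756%. Like those of TRAV14-3, its steady state libraries did not overlap, DPASEKO being higher (29.1% of the 79 Trav segments in all tables were so), and its groups at 24 h and 48 h did.

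Of the D copies, TRAV14D-1 took 0.874% and 0.930% in DPASEKO against 1.09% and 1.31% in WT at steady state, 1.04% and 1.76% against 1.11% and 2.14% at 24 h, and 0.718% and 1.44% against 1.07% and 1.96% at 48 h. TRAV14D-2 took 0.743% and 0.688% against 0.959% and 0.875% at steady state, 0.287% and 0.0532% against 0.349% and 0.0701% at 24 h, and 0.524% and 0.125% against 0.876% and 0.123% at 48 h. TRAV14D-3/DV8 took 1.23% and 1.31% against 1.33% and 1.40% at steady state, 0.636% and 0.641% against 0.758% and 0.740% at 24 h, and 1.13% and 0.957% against 1.38% and 1.15% at 48 h. All 3 D copies were lower in both DPASEKO libraries than in both WT libraries at steady state, and TRAV14D-3/DV8 was so at every sampling. Of the 79 Trav segments in all tables, 38% were lower without overlap at steady state, and 7.59% and 6.33% were so at 24 h and 48 h.

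**Figure D1:**
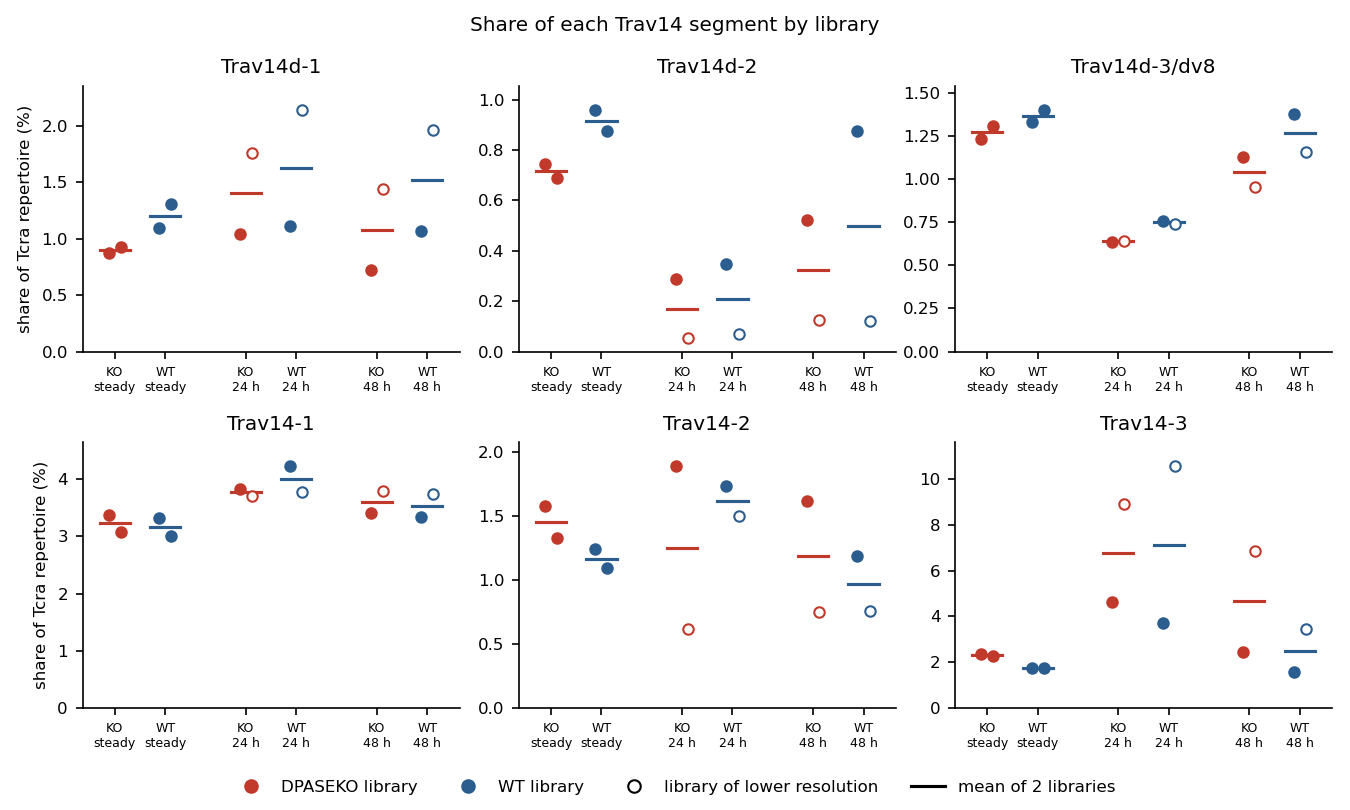
Share of the Tcra repertoire (y axis, percent, starting at 0 with a scale of its own in each panel) of each Trav14 segment in each library, by group along the x axis; open circles are the 4 libraries of lower resolution and bars the mean of 2 libraries. TRAV14D-3/DV8 lay lower in DPASEKO (red) than in WT (blue) at each sampling, while TRAV14-3 and TRAV14D-2 spread widely between the libraries of 1 group at 24 h and 48 h.

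The level of a member can be ordered over the groups. TRAV14D-3/DV8 was highest in WT and then DPASEKO at steady state, followed by WT and DPASEKO at 48 h and by WT and DPASEKO at 24 h, and of these neighbours only DPASEKO at steady state and WT at 48 h overlapped. TRAV14D-2 was highest in WT at steady state, 0.917% ± 0.0594 (SD, n = 2), apart from DPASEKO at steady state, 0.716% ± 0.0386 (SD, n = 2), and every later neighbour overlapped. Every neighbour in the order of groups overlapped for TRAV14-1, TRAV14-2 and TRAV14D-1, and for TRAV14-3 every one but the last, DPASEKO over WT at steady state.

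The share test asked whether a member took more or less of the repertoire in DPASEKO than in WT. It was fitted with limma on log2(percent + 0.01) over all 79 Trav segments, a scale that understates the change of low values, and adjusted by Benjamini-Hochberg at 0.05. A lower share could come from fewer cells with a segment or from less RNA per cell, which cannot be told apart here. With limma 0 of the 6 members were called at any sampling or over the mean of the 3 samplings, as were 0 of all 79 (0%, with 5 of 79 at an unadjusted p under 0.05 in the mean). The mean log2 difference, DPASEKO minus WT, was -0.37 ± 0.30 for TRAV14D-1, -0.34 ± 0.67 for TRAV14D-2, -0.20 ± 0.15 for TRAV14D-3/DV8 and 0.42 ± 0.40 for TRAV14-3 (± SE). For TRAV14-1 it was -0.01 ± 0.15 and for TRAV14-2 -0.02 ± 0.33, and with each library centred on its mean log2 value these 2 were 0.06 and 0.05. On the uncentred scale the median was -0.11 for the members and -0.10 for all 79 segments.

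Libraries of the same number deviated together in DPASEKO and WT (r over 79 segments from 0.723 to 0.931), and within a number TRAV14D-1 and TRAV14D-3/DV8 were lower in DPASEKO in 6 of 6 comparisons, TRAV14D-2 in 5 and TRAV14-3 higher in 5. With the number as a block, which leaves 3 residual degrees of freedom, limma called 3 members in the mean, against 34 of all 79 segments. TRAV14D-1 fell by 0.37 (limma adjusted p = 0.0170) and TRAV14D-3/DV8 by 0.20 (adjusted p = 0.0434). TRAV14-3 rose by 0.42 (limma adjusted p = 0.0258), while TRAV14D-2 stood at -0.34 (adjusted p = 0.0502). At 48 h alone the block called TRAV14D-1 (-0.51, limma adjusted p = 0.0324) and TRAV14-3 (0.82, limma adjusted p = 0.0310), against 28 of all 79 segments. Without the 4 libraries of lower resolution the mean difference was -0.36 for TRAV14D-1, -0.45 for TRAV14D-2 and 0.45 for TRAV14-3. These values rest on a lone library per labelled group.

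Which Traj partners a member was joined to was summarised as its mean Jα number, the mean of the Traj numbers weighted by their share of that segment, in which a high value means 5′ partners. At steady state TRAV14D-1 had a mean Jα number of 36.5 and 35.2 in DPASEKO against 29.1 and 27.4 in WT. TRAV14D-2 had 29.8 and 27.6 against 24.2 and 21.2, the most 3′ partners of the family in both genotypes. TRAV14D-3/DV8 had 31.5 and 30.4 against 26.2 and 25.8. TRAV14-1 had 37.9 and 36.8 against 35.3 and 34.0, TRAV14-2 39.1 and 37.9 against 36.8 and 35.8, and TRAV14-3 43.8 and 43.8 against 42.3 and 42.5. All 6 members had more 5′ partners in both DPASEKO libraries than in both WT libraries, as had 97.5% of the 79 segments.

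At 24 h the members lay closer together, and each was again higher in both DPASEKO libraries. TRAV14D-1 had 48.1 and 48.4 in DPASEKO against 44.3 and 42.9 in WT, TRAV14D-2 44.6 and 45.5 against 39.3 and 40.6, and TRAV14D-3/DV8 42.9 and 43.4 against 37.9 and 41.6. TRAV14-1 had 45.6 and 46.8 against 41.8 and 42.1, TRAV14-2 44.8 and 47.1 against 41 and 41.3, and TRAV14-3 46.8 and 48.0 against 44.3 and 45.2. Of all 79 segments 86.1% were higher without overlap. Only 5 and 6 Traj partners of TRAV14D-2 were above 0 in replicate 2 of DPASEKO and of WT, and its mean there rests on these.

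At 48 h the D copies were higher in both DPASEKO libraries than in both WT libraries. TRAV14D-1 had 39.6 and 38.6 in DPASEKO against 30.4 and 31.2 in WT, TRAV14D-2 33 and 33.3 against 25.1 and 25.01, and TRAV14D-3/DV8 35.1 and 37.7 against 27.7 and 33.8. TRAV14-1 had 38.1 and 37.7 against 33.9 and 34.0, TRAV14-2 39.0 and 37.0 against 35.6 and 37.9, and TRAV14-3 44.1 and 44.5 against 42.1 and 44.5. TRAV14-2 and TRAV14-3 overlapped between genotypes and the other 4 members did not, and 83.5% of all segments were higher in DPASEKO without overlap. Only 9 and 7 Traj partners of TRAV14D-2 were above 0 in replicate 2 of DPASEKO and of WT at 48 h. Over the 6 groups the mean Jα number of each D copy was highest in DPASEKO and then WT at 24 h, followed by DPASEKO at 48 h, DPASEKO at steady state, WT at 48 h and WT at steady state, and of these neighbours only DPASEKO at steady state and WT at 48 h overlapped, in TRAV14D-3/DV8.

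**Figure D2:**
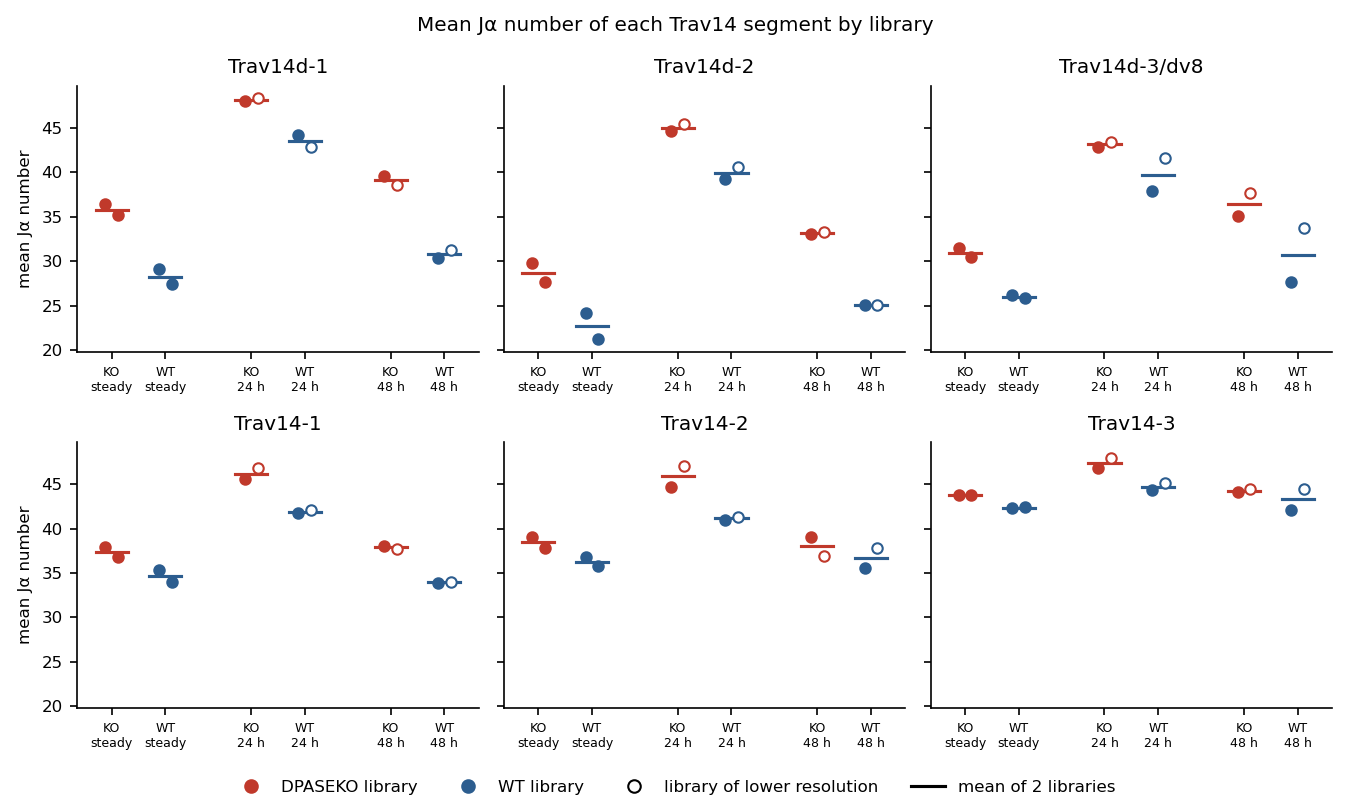
Mean Jα number (y axis, the Traj number averaged over each segment's own rearrangements, not starting at 0) of each Trav14 segment in each library, by group along the x axis; open circles are the 4 libraries of lower resolution and bars the mean of 2 libraries. DPASEKO (red) lay above WT (blue) in nearly every comparison, and TRAV14-3 stayed between 42.1 and 48.0 throughout. At steady state and 48 h the gaps were widest in the upper row of D copies.

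In the limma fit over 79 segments all 6 members rose in DPASEKO over the mean of the 3 samplings, as did 93.7% of the segments. The difference was 6.82 ± 0.65 Traj numbers for TRAV14D-1 (adjusted p = 2.87e-05) and 6.41 ± 0.74 for TRAV14D-2 (adjusted p = 4.11e-05). It was 4.68 ± 1.12 for TRAV14D-3/DV8, 3.64 ± 0.60 for TRAV14-1, 2.74 ± 0.75 for TRAV14-2 and 1.67 ± 0.65 for TRAV14-3, whose limma adjusted p was 0.0305. In this mean the sizes followed the order of the members along the chromosome, from the one farthest from the Traj segments to the nearest. At 24 h alone they did not, with TRAV14-2 at 4.75 and TRAV14D-3/DV8 at 3.43. The members' median was 4.16 and that of all segments 4.71. The call for TRAV14-3 was lost when any of 9 libraries was left out, namely all but DPASEKO replicate 1 at 24 h, WT replicate 2 at 24 h and WT replicate 2 at 48 h, with differences of 1.27 to 1.73 and limma adjusted p values of 0.0543 to 0.0709.

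Separately by sampling, limma called 2 of 6 members at steady state (48.1% of all segments), 4 at 24 h (46.8%) and 4 at 48 h (69.6%), all higher in DPASEKO. The steady state calls were TRAV14D-1 (7.55 ± 1.13, adjusted p = 0.00141) and TRAV14D-2 (6.01 ± 1.28, adjusted p = 0.00499). TRAV14D-3/DV8 (4.95 ± 1.94) and TRAV14-1 (2.69 ± 1.04) both had a limma adjusted p of 0.0534. The 4 libraries of lower resolution are not of steady state, so these differences do not change without them. Which side of the threshold TRAV14D-3/DV8 and TRAV14-1 fell on depended on the libraries left out. Leaving out DPASEKO replicate 1 or WT replicate 2 at steady state left 1, TRAV14D-1, with TRAV14D-2 at 4.94 (limma adjusted p = 0.0724) and 4.5 (adjusted p = 0.0713).

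At 24 h the calls were TRAV14D-1 (4.63 ± 1.13), TRAV14D-2 (5.12 ± 1.28), TRAV14-1 (4.28 ± 1.04) and TRAV14-2 (4.75 ± 1.31), with limma adjusted p values of 0.0118 to 0.0165. With DPASEKO replicate 2 or WT replicate 1 at 24 h left out, limma called 0 members, the 4 differences then being 3.59 to 5.32 with adjusted p values of 0.0531 to 0.112. Without the 4 libraries of lower resolution TRAV14D-3/DV8 stood at 5.03, from a lone library of each genotype. At 48 h the calls were TRAV14D-1 (8.29 ± 1.13), TRAV14D-2 (8.11 ± 1.28), TRAV14D-3/DV8 (5.67 ± 1.94) and TRAV14-1 (3.96 ± 1.04), with limma adjusted p values of 0.000362 to 0.0239. TRAV14D-3/DV8 stood at 4.38 (limma adjusted p = 0.124) without DPASEKO replicate 2 at 48 h and at 2.64 (adjusted p = 0.222) without WT replicate 1. Without the 4 libraries of lower resolution TRAV14-2 stood at 3.45 at 48 h, again from a lone library of each genotype.

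All 12 tested neighbours, 1 on each side of each member, rose in the limma fit of the mean Jα number over the 3 samplings. The differences were 4.48 to 8.05 beside the D copies, with TRAV15D-1/DV6D-1 at the top, and 2.00 to 5.03 beside the counterparts, with TRAV3-4, the neighbour of TRAV14-3, at the bottom. Across the 77 annotated segments the difference was larger farther from TRAJ58 (Pearson's r = 0.73, Spearman's rho = 0.759, and 0.712 and 0.74 over the 71 that are not Trav14), given as a description, since the segments share the libraries.

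Between 24 h and 48 h the members' partners moved 3′ in both genotypes. In the limma fit all 6 fell in DPASEKO, as 82.3% of all segments were called, with differences of -9.11 ± 1.13 for TRAV14D-1, -11.9 ± 1.28 for TRAV14D-2, -6.76 ± 1.94 for TRAV14D-3/DV8, -8.28 ± 1.04 for TRAV14-1, -7.92 ± 1.31 for TRAV14-2 and -3.10 ± 1.12 for TRAV14-3. In WT 5 of 6 fell (91.1%): TRAV14D-1 had -12.8 ± 1.13, TRAV14D-2 -14.9 ± 1.28, TRAV14D-3/DV8 -9.01 ± 1.94, TRAV14-1 -7.97 ± 1.04 and TRAV14-2 -4.44 ± 1.31. TRAV14-3 stood at -1.44 ± 1.12 in WT (limma adjusted p = 0.233), at -0.23 without WT replicate 1 at 48 h (adjusted p = 0.836) and at -2.64 without WT replicate 2 at 48 h, where limma called it (adjusted p = 0.0460). The DPASEKO call for TRAV14-3 was lost without DPASEKO replicate 2 at 24 h (-2.52), without either DPASEKO library at 48 h (-2.92 and -3.28) and without the 4 libraries of lower resolution (-2.70), with limma adjusted p values of 0.0666 to 0.113. That for TRAV14D-3/DV8 was lost without DPASEKO replicate 1 at 48 h (-5.47, limma adjusted p = 0.0525), and the WT call for TRAV14-2 without WT replicate 1 at 48 h (-3.29, limma adjusted p = 0.0599). The difference between the genotypes in this change was called for 0 of 6 members (2.53% of all segments, with 1 member, TRAV14D-1, at an unadjusted p under 0.05), its estimates running from -3.48 ± 1.85 for TRAV14-2 to 3.66 ± 1.59 for TRAV14D-1.

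Each D copy was next compared with its counterpart within the same library. The D copy took the smaller share in 12 of 12 libraries for each pair. Over the mean of the 6 groups the log2 ratio was -1.53 ± 0.14 for TRAV14D-1 over TRAV14-1, -1.86 ± 0.22 for TRAV14D-2 over TRAV14-2 and -1.74 ± 0.21 for TRAV14D-3/DV8 over TRAV14-3, with limma adjusted p values of 9.22e-06 to 4.13e-05. All 33 such pairs of the Trav array (100%) were called, 30 of them lower in the D copy.

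The ratio varied with the sampling and between libraries. TRAV14D-1 was 25.8% and 30.2% of TRAV14-1 in DPASEKO against 32.8% and 43.4% in WT at steady state, 27.2% and 47.4% against 26.4% and 56.5% at 24 h, and 21% and 37.8% against 32.0% and 52.6% at 48 h. TRAV14D-2 was 47.1% and 51.8% of TRAV14-2 against 77.3% and 79.7% at steady state, 15.2% and 8.63% against 20.2% and 4.66% at 24 h, and 32.3% and 16.6% against 73.6% and 16.3% at 48 h. TRAV14D-3/DV8 was 52.1% and 57.8% of TRAV14-3 against 75.6% and 79.8% at steady state, 13.8% and 7.18% against 20.4% and 7.01% at 24 h, and 46.1% and 13.9% against 88.0% and 33.5% at 48 h. In WT the last pair of D copies stood at 75.6% to 79.8% of their counterparts at steady state and at 4.66% to 20.4% at 24 h, while the WT values of TRAV14D-1 at the 2 samplings overlapped.

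**Figure D3:**
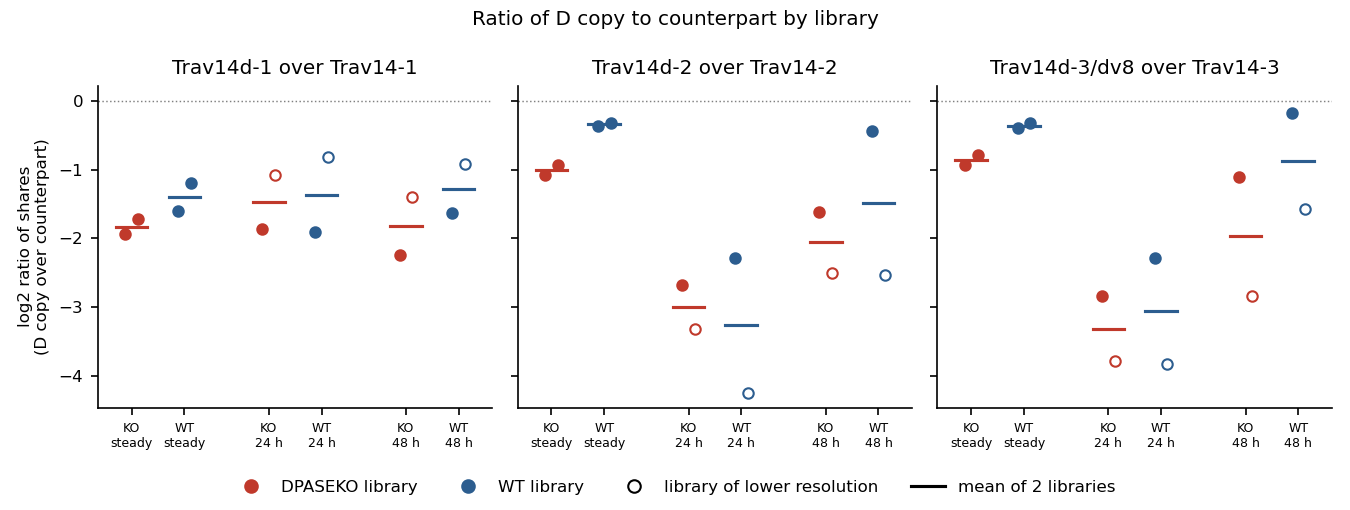
Log2 ratio of the share of each D copy to that of its counterpart (y axis; the dotted line is an equal share) in each library, by group along the x axis; open circles are the 4 libraries of lower resolution and bars the mean of 2 libraries. The ratios of TRAV14D-2 and TRAV14D-3/DV8 lay at -2.28 to -4.24 in the libraries of 24 h and at -0.32 to -0.40 in those of WT at steady state.

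In limma, the ratio differed between DPASEKO and WT for 0 of 3 pairs at every sampling and in the mean, and for 0 of all 33 pairs (0%, with 7 of 33 at an unadjusted p under 0.05 at 48 h and in the mean). The mean log2 difference was -0.36 ± 0.29 for TRAV14D-1, -0.32 ± 0.45 for TRAV14D-2 and -0.62 ± 0.42 for TRAV14D-3/DV8, with a median of -0.40 over the 30 other pairs. Same-numbered libraries deviated together here too (r over 33 pairs 0.873 to 0.922). With the number as a block limma called all 3 in the mean (adjusted p = 0.0180, 0.0431 and 0.000118 in that order), against 23 of all 33 pairs. At 48 h it also called all 3, against 18 of all 33. The differences there were -0.54, -0.57 and -1.10 (limma adjusted p = 0.0466, 0.0463 and 6.68e-05). At steady state the block called TRAV14D-2, -0.66 (limma adjusted p = 0.0497), against 7 of all 33 pairs. Without the 4 libraries of lower resolution, with a lone library per labelled group, TRAV14D-2 stood at -0.74 and TRAV14D-3/DV8 at -0.66 in the mean. At 48 h they stood at -1.17 and -0.93.

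From 24 h to 48 h the log2 ratio changed in DPASEKO by 1.34 ± 0.73 for TRAV14D-3/DV8, 0.94 ± 0.77 for TRAV14D-2 and -0.35 ± 0.50 for TRAV14D-1, with 0 of 3 called by limma (0% of all pairs, 7 of 33 at an unadjusted p under 0.05). In WT it changed by 2.17 ± 0.73 for TRAV14D-3/DV8 (limma adjusted p = 0.0510), 1.78 ± 0.77 for TRAV14D-2 (adjusted p = 0.121) and 0.09 ± 0.50 for TRAV14D-1, and limma called 0 of 3, against 27.3% of all pairs. For these changes the block was a difference between the replicate numbers that all samplings shared. With it limma called TRAV14D-3/DV8 (adjusted p = 0.00430) and TRAV14D-2 (adjusted p = 0.0215) in WT, against 15 of all 33 pairs. Without the 4 libraries of lower resolution these changes compare a lone library at 48 h with a lone library at 24 h. They were then 1.73 for TRAV14D-3/DV8 and 1.07 for TRAV14D-2 in DPASEKO, and 2.10 and 1.84 in WT.

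The log2 shares themselves changed from 24 h to 48 h by 0.69 ± 0.27 in DPASEKO and 0.74 ± 0.27 in WT for TRAV14D-3/DV8, and by -0.65 ± 0.69 in DPASEKO and -1.43 ± 0.69 in WT for TRAV14-3. With limma 0 of 6 members were called in either genotype, against 1.27% of all segments, with 1 member, TRAV14D-3/DV8, at an unadjusted p under 0.05 in each. The median of all segments was 0.28 in DPASEKO and 0.27 in WT, and -0.04 and 0.01 with each library centred. Without the 4 libraries, with a lone library per labelled group, the changes in DPASEKO were 0.84 for TRAV14D-2, 0.81 for TRAV14D-3/DV8 and -0.91 for TRAV14-3. In WT they were 1.30, 0.85 and -1.24 in that order.

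The D copies were also joined to other Traj segments than their counterparts. Over the mean of the 6 groups the mean Jα number was lower than that of the counterpart, with differences of -9.81 ± 0.45 for TRAV14D-3/DV8 (limma adjusted p = 7.97e-09), -7.01 ± 0.40 for TRAV14D-2 (adjusted p = 2.86e-08) and -1.03 ± 0.32 for TRAV14D-1 (adjusted p = 0.0133), and 66.7% of all 33 pairs were called. The call for TRAV14D-1 was lost without the 4 libraries of lower resolution (-0.82, limma adjusted p = 0.0578). The D copy was below its counterpart in 12 of 12 libraries for TRAV14D-2 and TRAV14D-3/DV8, and in 6 of 12 for TRAV14D-1.

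The difference in mean Jα number, D copy minus counterpart, was -1.43 and -1.61 for TRAV14D-1 in DPASEKO against -6.18 and -6.59 in WT at steady state. At 24 h it was 2.45 and 1.59 in DPASEKO against 2.50 and 0.841 in WT, and at 48 h 1.5 and 0.880 against -3.47 and -2.80. The D copy thus had the more 5′ partners of the pair in both genotypes at 24 h, and at 48 h in DPASEKO alone. For TRAV14D-2 the difference was -9.34 and -10.3 in DPASEKO against -12.6 and -14.7 in WT at steady state, -0.129 and -1.61 against -1.71 and -0.766 at 24 h, and -5.98 and -3.70 against -10.5 and -12.9 at 48 h. For TRAV14D-3/DV8 it was -12.3 and -13.3 against -16.1 and -16.7 at steady state, -3.90 and -4.52 against -6.45 and -3.57 at 24 h, and -8.98 and -6.76 against -14.4 and -10.7 at 48 h. At steady state and 48 h all 3 differences were higher in both DPASEKO libraries than in both WT libraries, as were those of 81.8% and 63.6% of all 33 pairs.

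In limma over the 33 pairs the difference between D copy and counterpart rose in DPASEKO relative to WT for all 3 in the mean of the 3 samplings, where 54.5% of all pairs were called. It did so by 3.18 ± 0.64 Traj numbers for TRAV14D-1 (adjusted p = 0.00582), 3.67 ± 0.80 for TRAV14D-2 (adjusted p = 0.00582) and 3.02 ± 0.89 for TRAV14D-3/DV8 (adjusted p = 0.0159). The median over the 30 other pairs was 2.6, of which 15 were called, and the range was 0.84 to 4.68, so the Trav14 values lay inside that of the rest. Without DPASEKO replicate 1 at steady state TRAV14D-3/DV8 stood at 2.85 (limma adjusted p = 0.0527).

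By sampling, limma called 3 of 3 at 48 h (36.4% of all pairs): 4.33 ± 1.1 for TRAV14D-1, 6.83 ± 1.39 for TRAV14D-2 and 4.71 ± 1.54 for TRAV14D-3/DV8, with adjusted p values of 0.00540 to 0.0357. The value of TRAV14D-2 ran from 5.64 to 8.02 with 1 library left out. In replicate 2 at 48 h its mean rests on 9 Traj partners in DPASEKO and 7 in WT, and the genotypes lay farther apart there than in replicate 1. Without WT replicate 1 at 48 h limma called only TRAV14D-2, with TRAV14D-1 at 4.00 (adjusted p = 0.0694) and TRAV14D-3/DV8 at 2.88 (adjusted p = 0.165). TRAV14D-3/DV8 was also lost without DPASEKO replicate 2 at 48 h (3.6, limma adjusted p = 0.161) and without any 1 of the steady state libraries (limma adjusted p values of 0.0552 and 0.0567), and with library weights, which left 2 called. Limma called 1 of 3 at steady state, TRAV14D-1 (4.86 ± 1.1, adjusted p = 0.0411, 3.03% of all pairs), and 0 when any of 6 libraries was left out, namely the 4 of steady state and DPASEKO replicates 1 and 2 at 24 h. With any of the 4 libraries at 48 h left out, TRAV14D-2 passed the threshold at steady state as well. With the number as a block limma called TRAV14D-1 (adjusted p = 0.0290) and TRAV14D-3/DV8 (3.54, adjusted p = 0.0491) at steady state, against 14 of all 33 pairs. At 24 h limma called 0 of 3 (3.03% of all pairs; 0 of 3 at an unadjusted p under 0.05), with differences of 0.36 ± 1.1, 0.37 ± 1.39 and 0.80 ± 1.54. The 95% interval at 24 h was -2.09 to 2.80 for TRAV14D-1, -2.72 to 3.45 for TRAV14D-2 and -2.63 to 4.23 for TRAV14D-3/DV8.

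From 24 h to 48 h this difference changed in DPASEKO by -0.83 ± 1.1 for TRAV14D-1, -3.97 ± 1.39 for TRAV14D-2 and -3.66 ± 1.54 for TRAV14D-3/DV8. Limma called 0 of 3 (24.2% of all pairs, with 2 of 3 at an unadjusted p under 0.05). In WT each D copy moved 3′ beyond its counterpart, with changes of -4.80 ± 1.1 for TRAV14D-1, -10.4 ± 1.39 for TRAV14D-2 and -7.57 ± 1.54 for TRAV14D-3/DV8, all called by limma (adjusted p values of 0.000217 to 0.00406; 57.6% of all pairs). In WT replicate 2 the mean of TRAV14D-2 rests on 6 Traj partners at 24 h and 7 at 48 h. The difference between the genotypes was itself tested: it was 3.97 ± 1.56, 6.47 ± 1.96 and 3.91 ± 2.18, with limma adjusted p values of 0.0941, 0.0505 and 0.226 and 0 of 3 called (6.06% of all pairs; 2 of 3 at an unadjusted p under 0.05). With the number as a block shared by all samplings TRAV14D-2 was called (limma adjusted p = 0.0391), against 8 of all 33 pairs. Without the 4 libraries, which left a lone library per labelled group, its estimate fell to 2.92.

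**Figure D4:**
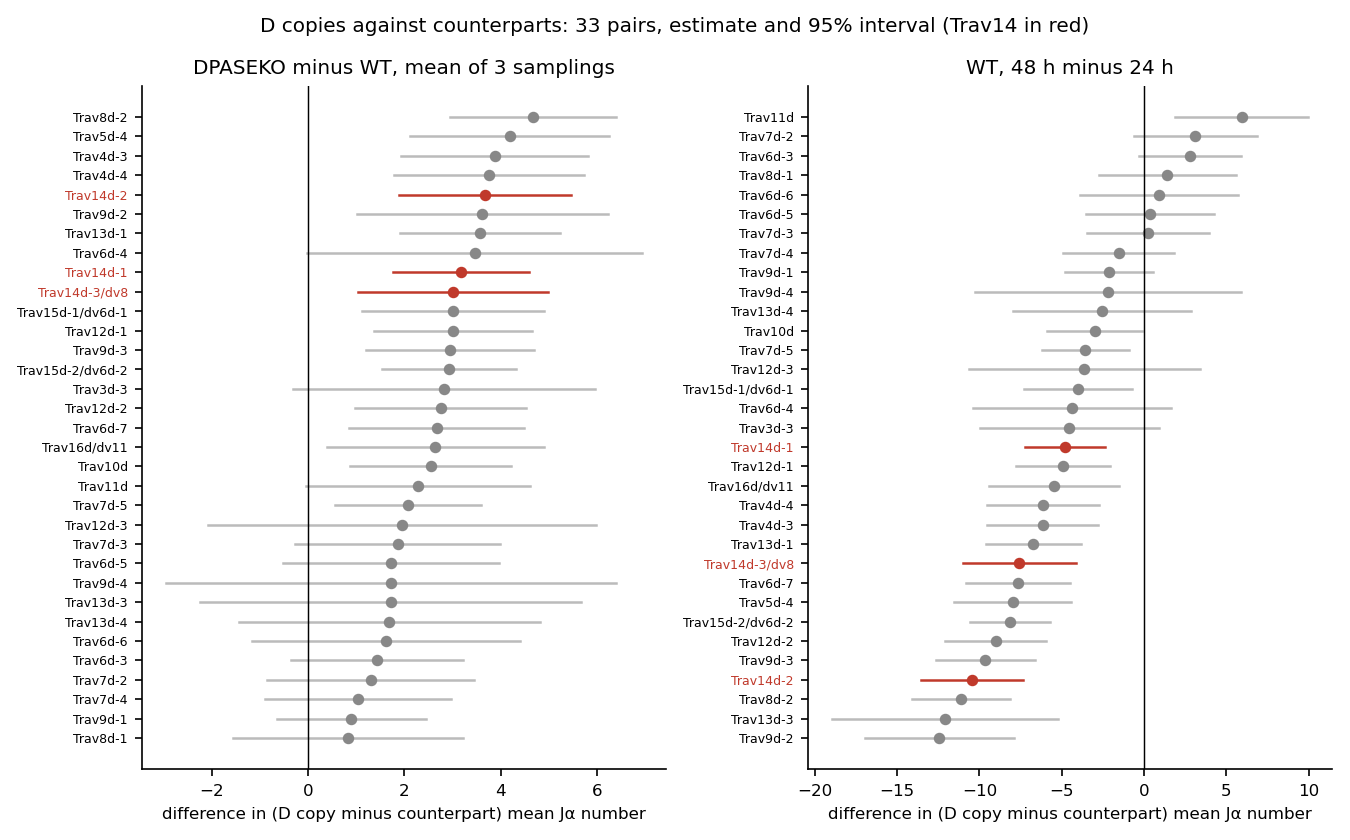
Difference in the mean Jα number of a D copy relative to its counterpart for all 33 pairs of the Trav array (y axis, named by the D copy), as limma estimate and 95% interval in Traj numbers (x axis), for DPASEKO minus WT on the left and for 48 h minus 24 h in WT on the right. The 3 Trav14 pairs (red) had 3.02 to 3.67 on the left and -4.80 to -10.4 on the right, inside the range of the others.

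The Traj partners behind these means can be read from the share of a segment's own rearrangements in each stretch of the Traj array. Joins to the most 3′ segments, TRAJ11 to TRAJ2, made up 8.10% and 7.68% of TRAV14D-1 in DPASEKO against 19.2% and 22.2% in WT at steady state, 11.2% and 12.4% against 24.2% and 28.7% of TRAV14D-2, and 7.23% and 7.62% against 18.6% and 18.6% of TRAV14D-3/DV8. They made up 5.84% and 6.17% against 9.23% and 9.99% of TRAV14-1, 4.06% and 4.69% against 7.44% and 7.79% of TRAV14-2, and 2.20% and 2.28% against 4.10% and 4.03% of TRAV14-3. For each member both DPASEKO values lay under both WT values, as they did for 100% of the 79 segments.

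At the other end, joins to TRAJ58 to TRAJ42 made up 45.1% and 40.9% of TRAV14D-1 in DPASEKO against 29.3% and 25.5% in WT, 24.3% and 16.5% against 15.8% and 9.96% of TRAV14D-2, and 27.4% and 24.4% against 17.6% and 16.8% of TRAV14D-3/DV8. They made up 46.0% and 42.6% against 40.2% and 35.9% of TRAV14-1, 51.2% and 45.9% against 44.1% and 41.4% of TRAV14-2, and 66.8% and 66.6% against 62.9% and 63.1% of TRAV14-3. In these joins TRAV14D-1 lay within 2 percentage points of TRAV14-1 in each DPASEKO library and more than 10 below it in each WT library.

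**Figure D5:**
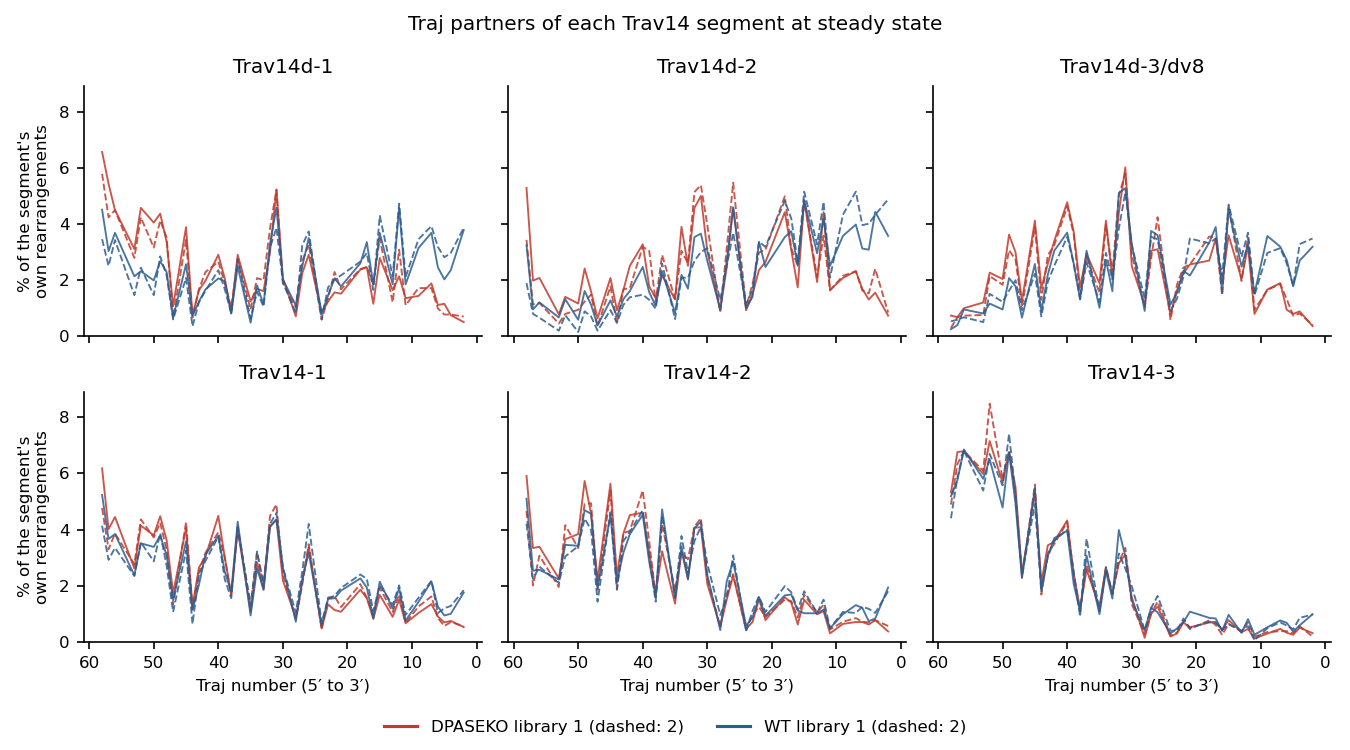
Percent of each Trav14 segment's own rearrangements (y axis, starting at 0) joined to each Traj, with Traj numbers running from 58 on the left to 2 on the right of the x axis, in the 2 DPASEKO (red) and 2 WT (blue) libraries of steady state. At the right edge, TRAJ11 to TRAJ2, DPASEKO lay under WT in every panel, by the widest margin in the D copies, and TRAV14-3 was concentrated at the left edge in both genotypes.

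Of the single pairs with TRAJ11 to TRAJ2, 21 of 21 pairs of the D copies and 15 of 21 pairs of the counterparts were lower in both DPASEKO than in both WT libraries at steady state, against 78.5% of all 553 pairs with these Traj segments. The median log2 difference was -1.03 for the D copies, -0.22 for the counterparts and -0.61 for all. Unlike the percents above, single pairs are given as shares of the whole repertoire, which also move with the total share of a segment. At steady state that total was lower in DPASEKO for the D copies and higher for TRAV14-2 and TRAV14-3. Among the pairs with TRAJ58 to TRAJ42, 48 of the 78 Trav14 pairs were higher in both DPASEKO libraries and 0 were lower, against 60.9% higher of all 1027. All 13 such pairs of TRAV14-3 were higher and 2 of 13 of TRAV14D-2.

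On average over the 12 libraries the most used pair was the one with TRAJ49 for TRAV14-1 (0.211%), TRAV14-2 (0.0760%) and TRAV14-3 (0.371%). For TRAV14D-1 (0.0826%) and TRAV14D-2 (0.0228%) it was the one with TRAJ58, and for TRAV14D-3/DV8 (0.0620%) the one with TRAJ31. The most used pair differed between libraries: the one named was so in 3 of 12 for each counterpart, 5 of 12 for TRAV14D-1, 4 of 12 for TRAV14D-2 and 6 of 12 for TRAV14D-3/DV8. For TRAV14D-2 it was TRAJ15 in both WT libraries at steady state. In the 4 steady state libraries TRAV14D-3/DV8 with TRAJ31 took 0.0741% and 0.0759% in DPASEKO against 0.0702% and 0.0715% in WT, without overlap, and 31.5% of all 3397 pairs were higher in DPASEKO without overlap.

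In the limma fit of all 3397 pairs, 1 Trav14 pair was called at steady state (0.294% of all pairs) and 2 in the mean of the 3 samplings (1.09%), all lower in DPASEKO and all with TRAJ2, the most 3′ Traj of the tables. TRAV14D-2 with TRAJ2 took 0.00534% and 0.00572% in DPASEKO against 0.0342% and 0.0426% in WT at steady state, 0.000821% and a listed 0 against 0.000853% and a listed 0 at 24 h, and 0.000850% and a listed 0 against 0.0200% and 0.0189% at 48 h. It fell by 1.63 ± 0.20 on the log2 scale at steady state (limma adjusted p = 0.0320) and by 1.05 ± 0.12 in the mean (adjusted p = 0.0143). TRAV14-1 with TRAJ2 took 0.0174% and 0.0168% against 0.0581% and 0.0551% at steady state, 0.00246% and a listed 0 against 0.00853% and 0.00823% at 24 h, and 0.00510% and 0.0147% against 0.0442% and 0.0661% at 48 h, and fell by 1.25 ± 0.17 in the mean (limma adjusted p = 0.0230). For both pairs the libraries of DPASEKO lay under those of WT at steady state and at 48 h, as did those of 28.2% and 14.7% of all 3397 pairs.

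At 24 h and at 48 h limma called 0 Trav14 pairs between the genotypes (0% of all pairs; 27 and 43 of 258 at an unadjusted p under 0.05). The calls of single pairs depend on the libraries. That of TRAV14D-2 with TRAJ2 at steady state was lost when any of 10 libraries was left out. In the mean the call of TRAV14D-2 with TRAJ2 was lost when any of 7 libraries was left out. That of TRAV14-1 with TRAJ2 was lost when any of 8 was left out. Same-numbered libraries deviated together in the pair shares (r over 3397 pairs 0.464 to 0.652). With the number as a block limma called 0 Trav14 pairs at steady state, 5 at 48 h and 4 in the mean. Of all 3397 pairs it called 0, 56 and 76 in that order. A pseudocount of 0.001, the filter on low values and centring each gave 0 at steady state and in the mean.

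For the change from 24 h to 48 h limma called 0 Trav14 pairs in DPASEKO (0% of all pairs; 56 of 258 at an unadjusted p under 0.05). In WT it called 16 Trav14 pairs (6.8% of all pairs), 13 higher (5.98% of all pairs) and 3 lower (0.824%). The lower were TRAV14D-1 with TRAJ58 (-1.66 ± 0.37), TRAV14-1 with TRAJ52 (-1.60 ± 0.28) and TRAV14-1 with TRAJ56 (-0.98 ± 0.23, named after its value was seen), all in the 5′ stretch. The largest increases were of TRAV14-1 with TRAJ15 (2.29 ± 0.50), TRAV14D-1 with TRAJ21 (2.21 ± 0.49), TRAV14D-3/DV8 with TRAJ21 (2.06 ± 0.41), TRAV14D-1 with TRAJ15 (1.83 ± 0.32), TRAV14-1 with TRAJ2 (1.80 ± 0.29), TRAV14D-2 with TRAJ23 (1.58 ± 0.33), TRAV14-1 with TRAJ13 (1.57 ± 0.32) and TRAV14D-2 with TRAJ2 (1.5 ± 0.20). None of the 16 was a pair of TRAV14-2 or TRAV14-3. For the difference between the genotypes in this change limma called 0 (0%; 30 of 258 at an unadjusted p under 0.05). The 16 calls in WT depend on the libraries, and each was lost when any of 5 to 9 libraries was left out. The WT count was 33 with the block, against 361 of all 3397 pairs. It was 0 with library weights, with a pseudocount of 0.001 and with the filter on low values. The block here was a difference between the numbers shared by all samplings.

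Of the other 73 Trav segments, the 3 whose share over the 12 libraries went most closely with the summed D copies were TRAV13D-1 (Pearson's r of log2 shares 0.904), TRAV3-1 (0.801) and TRAV4D-4 (0.725). For the summed counterparts they were TRAV3-4 (0.98), TRAV4-4/DV10 (0.956) and TRAV9-3 (0.783). TRAV13D-1 and TRAV3-4 are annotated neighbours of TRAV14D-1 and TRAV14-3. Over the 8 libraries without the 4 of lower resolution the values were 0.978, 0.92 and 0.965 for the first list and 0.992, 0.992 and 0.162 for the second, so that of TRAV9-3 rested on the 4. These are descriptions over libraries that share their totals.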

How the data were processed

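Tcra transcripts from 12 libraries were measured, 2 for each of 6 groups. That each library came from a mouse of its own is not stated in the labels, so p-values measure the spread between libraries. The deposited tables give, per the labels, the use of each pair of a Trav with a Traj, and their values are fractions of a repertoire. No aligner, build, counting unit or depth is given in the sources used here, so no interval for counting error was computed.

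Each value was divided by its table's total and given in percent. The log2 of percent + 0.01, the mean Jα number per segment, the log2 ratio of a D copy to its counterpart and their difference in mean Jα number were fitted with limma 3.58.1 (R 4.3.3), with 1 mean per group, 6 residual degrees of freedom and Benjamini-Hochberg adjustment over all 79 Trav segments, 3397 pairs or 33 pairs of copies, at 0.05. The 6 Trav segments that not all tables list, none of them of the Trav14 family, were left out of the fits. The scripts were tested on simulated data with a narrower spread than that of the real libraries. That test checks the code and does not measure power or false calls at the real spread. Tables were handled in Python 3.11.15 with pandas 2.3.3 and figures drawn with matplotlib 3.10.9.

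Same-numbered libraries of DPASEKO and WT were taken as pairs where their deviations correlated above 0.1 at each sampling, which held for Trav shares, pair shares, ratios (0.873 to 0.922) and differences in mean Jα number between copies (0.869, 0.241 and 0.188), and not for the mean Jα number itself. The pairing comes from the numbers in the labels, which do not say what a number marks. At 24 h and 48 h the numbers also separate the libraries of lower resolution from the others. Alternatives were leaving out each library or the 4 of lower resolution, the replicate block, library weights, pseudocounts of 0.001 and 0.1, the total of the 79 shared segments as denominator, centring, and minimum mean shares of 0.1% per segment and 0.01% per pair. For DPASEKO minus WT the block had a term for each sampling and number. For the changes from 24 h to 48 h and their difference it had a term for the number that all samplings shared. Replicate 2 was of lower resolution at 24 h and 48 h only, which such a shared term cannot follow.

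The members and lists were chosen with earlier results of these data known. All members are named, with the most used pair of each, up to 10 called pairs per comparison with the largest change and the 3 segments most like the summed copies.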

Additional observations from a re-analysis of the deposited data

How the results depend on the processing

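Of 1665 alternative values of single Trav14 results, 1318 kept their direction and side of the threshold, 257 lost the threshold, 61 gained it and 29 changed sign. In counts of members called by limma, the replicate block gave for the share 2 at 48 h (28 of all 79 segments) and 3 in the mean (34). For the ratio it gave 1 at steady state (7 of all 33 pairs), 3 at 48 h (18), 3 in the mean (23) and 2 for the change in WT (15). For the difference in mean Jα number between copies it gave 2 at steady state (14 of all 33 pairs) and 1 for the difference between the changes (8). For pairs with a Traj it gave 0 at steady state (0 of all 3397), 5 at 48 h (56), 4 in the mean (76) and 33 for the change in WT (361). For the mean Jα number the same-numbered libraries did not pair (correlations of 0.840, 0.0903 and 0.0213). There the block gave 4 in place of 2 at steady state (49 of all 79 segments) and 6 in place of 4 at 24 h (54). The counts without the 4 libraries, given next, rest on a lone library per labelled group and on the spread at steady state. Without the 4 libraries of lower resolution the counts were, for the share, 3 in the mean, 3 for the change in DPASEKO and 3 for that in WT; for the ratio 2 in each of these and 2 at 48 h; for the mean Jα number 4 at steady state, 5 at 24 h, 5 at 48 h and 5 for the change in DPASEKO; and for its difference between copies 3 at steady state, 2 for the change in DPASEKO and 2 in the mean of the 6 groups. For pairs they were 28 at steady state, 66 at 48 h, 117 in the mean, 115 for the change in DPASEKO and 159 for that in WT.

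Library weights gave 4 for the mean Jα number at steady state (60 of all 79 segments). For its difference between copies they gave 3 at steady state (18 of all 33 pairs) and 2 at 48 h (9). For pairs with a Traj they gave 34 at steady state (480 of all 3397), 1 in the mean (4) and 0 for the change in WT (0). For pairs at steady state, in the mean and for the change in WT, a pseudocount of 0.001 gave 0 each, as did the filter on low values, and centring gave 0 for the first 2 of these. A pseudocount of 0.1 gave 4 at steady state, 2 at 48 h, 5 in the mean, 13 for the change in DPASEKO and 24 for that in WT, and 1 ratio for the change in WT, as did the filter. The cause was not tested. Counts over all features under the pseudocounts, the filter and single libraries left out are not given here.

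Leaving out 1 library gave for pairs 0 to 2 at steady state, 0 to 18 at 48 h, 0 to 22 in the mean, 0 to 9 for the change in DPASEKO and 0 to 32 in WT. For the mean Jα number it gave 1 to 4 at steady state, 0 to 5 at 24 h, 3 to 4 at 48 h, 5 to 6 in the mean and 4 to 6 for each change. It gave 0 to 1 ratios for the change in WT, and for the difference between copies 0 to 2 at steady state, 1 to 3 at 48 h, 2 to 3 in the mean, 0 to 1 for the change in DPASEKO and 0 to 1 for the difference between the changes.

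Signs changed only in values that were not called. In the mean share TRAV14-1 was 0.063 and TRAV14-2 0.0546 with centring, and TRAV14-2 was 0.29 without the 4 libraries. Leaving out 1 library gave -0.035 to 0.0184, -0.28 to 0.25 and -0.79 to 0.12 for the mean share of TRAV14-1, TRAV14-2 and TRAV14D-2. The difference between copies at 24 h was -0.47 to 1.18 for TRAV14D-1 (-0.0404 without the 4 libraries), -0.38 to 1.11 for TRAV14D-2 and -0.64 to 2.24 for TRAV14D-3/DV8. The ratio was -0.46 to 0.64 for the change in WT of TRAV14D-1, and -1.62 to 0.47 at 48 h and -0.67 to 0.0264 in the mean for TRAV14D-2, and the mean Jα number of TRAV14-3 at 48 h was -0.24 to 2.17. The depth is unknown, which limits every share.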
